A study of Rattus norvegicus with 2 samples.

Results

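De novo fatty acid synthesis was followed through 10 genes of rat C6 glioma cells that cover the supply of cytosolic acetyl-CoA (Slc25a1, Acly, Acss2), the supply of NADPH (Me1), the acetyl-CoA carboxylases (Acaca, Acacb), the synthase (Fasn), a thioesterase (Olah) and the regulators Thrsp and Mid1ip1. They were chosen by gene symbol, and each was measured by 1 protein-coding transcript cluster, a group of probes for a gene, out of 20669 genes with a cluster of their own. C6 is an established rat glioma line. C6 TAZ cells are C6 cells in which the CRISPR-Cas9 system was used to disrupt tafazzin, an acyltransferase that remodels the mitochondrial lipid cardiolipin, and the C6 cells set against them are the wild-type line. The sources used here do not say whether the C6 TAZ line goes back to 1 clone. Both were grown in the same serum-supplemented medium with no other treatment. For each line the RNA of 3 independent cultures was pooled and measured on 1 Clariom S rat array, so the spread between cultures was not measured, and no SD, p-value or interval can be given for any value below.

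In this pathway, citrate made in mitochondria is exported to the cytosol and cleaved into acetyl-CoA, while a synthetase makes acetyl-CoA from acetate as a second route. A carboxylase turns acetyl-CoA into malonyl-CoA, and fatty acid synthase joins these units with NADPH as the reducing agent until palmitate is released. Most of the enzymes are known targets of the sterol regulatory element-binding proteins (SREBPs), and malonyl-CoA also restrains the entry of fatty acids into mitochondria. Proliferating glioma cells use the pathway to make membrane lipids.

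The values are the log2 signals that the authors deposited, and differences are C6 TAZ minus C6 on the log2 scale, where 1 is 2-fold. Both arrays gave signals for 23188 clusters, with a median of 6.40 in C6 TAZ and 6.39 in C6. The brightness of a cluster depends on its probes, so signals were compared between the arrays and not between genes. The deposited data name the columns in conflicting ways. A workbook lists the signals under C6 TAZ and C6. The per-sample table matches it in 1.16% of clusters as named and in 100% once its 2 columns are swapped. The names of the workbook were used, because the study's own table of sterol genes lists its signals under those names. With the other names every difference given here changes its sign. Taz, the disrupted gene, had a log2 signal of 9.84 in C6 TAZ and 10.34 in C6, a difference of −0.50, and its probes may lie outside the disrupted part of the gene. The glioma and progenitor markers Vim, Nes, Cspg4, Pdgfra, Sox2 and Cd44 had log2 signals of 10.36 to 18.77 in C6 TAZ and 9.86 to 18.72 in C6. The 8 astrocyte markers had signals of 4.67 to 12.64 in C6 TAZ and 3.91 to 13.18 in C6, and 4 of them, among these Gfap at 6.38 in C6 TAZ and 5.73 in C6, had a positive difference while the other 4 had a negative one.

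The acetate-activating enzyme Acss2 and the thioesterase Olah were lower in the C6 TAZ array by 7.36-fold and 7.11-fold, Fasn by 2.25-fold and Acaca by 2.10-fold. Of the 10 genes, 4 were thus lower by 2-fold or more, against 2.10% of all clusters. Thrsp was the 1 gene higher by 2-fold or more, against 2.34% of all clusters. At 1.5-fold, 6 genes were lower, against 9.05% of all clusters, and 1 was higher, against 9.87%. The median difference of the 10 genes was −0.79, while that of all clusters was 0.00, and 8 of the 10 genes lay below 0, as did 49.5% of all clusters. These counts describe 2 arrays. Acss2, Olah, Fasn and Acaca had already been named by the study as lower on these arrays, so the choice of genes was not independent of these values.

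**Figure D1:**
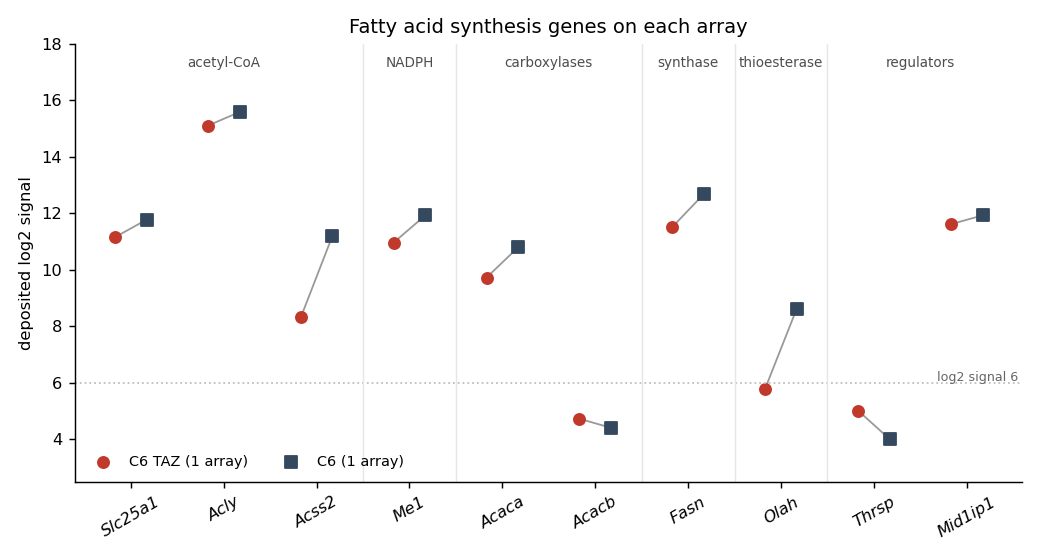
Deposited log2 signal (vertical axis) of the 10 genes, ordered by role, in the C6 TAZ array (red circles) and the C6 array (dark squares), each 1 array of RNA pooled from 3 cultures, with no error bars because there are no replicates. The C6 TAZ circle lies below the C6 square for 8 genes and above it for Acacb and Thrsp, both of which stay under the dotted line at a log2 signal of 6; heights are not comparable between genes.

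The sequence before the start of transcription is shown for the 2 genes with the largest differences, for both genes of the citrate route and for Thrsp, the gene that went the other way. RefSeq's promoter table for the GRCr8 assembly held 8 of the 10 genes, and Acaca and Fasn had no entry. The 250 bases before the listed start lie at chr3:164464453-164464702 (plus strand) for Acss2, chr17:79786582-79786831 (plus strand) for Olah, chr11:96559804-96560053 (plus strand) for Slc25a1, chr10:85963632-85963881 (minus strand) for Acly and chr1:161138965-161139214 (minus strand) for Thrsp. Capitals mark CCAAT boxes (CCAAT, or ATTGG on the other strand) and GC boxes (GGGCGG, or CCGCCC), the motifs of the factors NF-Y and Sp1 that are known to act beside SREBPs.
Acss2: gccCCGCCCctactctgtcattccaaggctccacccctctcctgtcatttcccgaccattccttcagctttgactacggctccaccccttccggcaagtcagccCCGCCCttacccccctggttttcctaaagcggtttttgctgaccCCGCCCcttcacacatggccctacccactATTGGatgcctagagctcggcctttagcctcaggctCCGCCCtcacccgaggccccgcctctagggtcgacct
Olah: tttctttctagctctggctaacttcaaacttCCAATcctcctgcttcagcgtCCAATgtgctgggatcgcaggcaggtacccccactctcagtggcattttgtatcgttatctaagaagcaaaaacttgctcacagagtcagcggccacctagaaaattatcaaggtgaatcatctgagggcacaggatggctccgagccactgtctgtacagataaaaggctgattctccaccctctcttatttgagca
Slc25a1: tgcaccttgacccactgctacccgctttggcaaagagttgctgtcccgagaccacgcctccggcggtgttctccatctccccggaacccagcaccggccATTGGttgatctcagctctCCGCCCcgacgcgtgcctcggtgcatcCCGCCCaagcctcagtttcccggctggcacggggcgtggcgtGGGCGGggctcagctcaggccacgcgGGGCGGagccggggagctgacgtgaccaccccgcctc
Acly: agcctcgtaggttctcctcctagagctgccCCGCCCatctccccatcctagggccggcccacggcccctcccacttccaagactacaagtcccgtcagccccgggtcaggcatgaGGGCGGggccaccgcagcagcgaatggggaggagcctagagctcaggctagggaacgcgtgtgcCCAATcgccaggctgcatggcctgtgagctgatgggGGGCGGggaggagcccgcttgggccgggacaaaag
Thrsp: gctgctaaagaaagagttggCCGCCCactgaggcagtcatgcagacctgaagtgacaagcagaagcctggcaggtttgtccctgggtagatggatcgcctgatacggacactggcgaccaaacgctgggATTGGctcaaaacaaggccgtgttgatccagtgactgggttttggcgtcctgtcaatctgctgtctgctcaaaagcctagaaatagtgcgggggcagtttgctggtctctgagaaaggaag

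Both motifs were present before Acss2, Slc25a1, Acly and Thrsp. Acss2 and Slc25a1 each had 4 GC boxes and 1 CCAAT box, and Acly had 3 GC boxes and 1 CCAAT box. Olah had no GC box in this window and 2 CCAAT boxes, which began 219 and 198 bases before the start, farther out than those of the other genes. The CCAAT box of Acss2 began 73 bases before the start, that of Acly 71 bases and that of Acacb 72 bases, whereas those of Slc25a1 and Thrsp began 151 and 121 bases before it. Over all 8 windows, 6 held a CCAAT box, against 34.0% of 33469 windows of the same length in the table, and 6 held a GC box, against 30.5%. These shares are over every window of the table, with no limit to protein-coding genes, and the contrast was not tested. Me1 had 5 GC boxes and Mid1ip1 had 2, in both cases without a CCAAT box. None of the 8 windows held the core TCACNCCAC of a sterol regulatory element, the E-box CACGTG or TATAAA, searched on both strands, which were present in 0.974%, 5.59% and 12.9% of all windows. Only exact matches to these forms were counted, so whether the windows hold other forms of a sterol regulatory element was not tested. No CCAAT box overlapped a GC box in these windows.

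Among the genes of acetyl-CoA supply, the acetate route and the citrate route differed in size. Acss2, the cytosolic and nuclear synthetase that turns acetate into acetyl-CoA, had a log2 signal of 8.32 in C6 TAZ and 11.20 in C6, a difference of −2.88. This was the lowest difference of all 23188 clusters. Acly, which cleaves exported citrate into acetyl-CoA and oxaloacetate, had a log2 signal of 15.11 in C6 TAZ and 15.59 in C6, a difference of −0.48, and 13.3% of all clusters were at that difference or lower. Slc25a1, the carrier that exports citrate from mitochondria, had a log2 signal of 11.16 in C6 TAZ and 11.78 in C6, a difference of −0.62. The difference of Acss2 minus that of Acly was −2.40 on the log2 scale. The relatives of Acss2 were too dim for a comparison with it. Acss1 and Acss3, which are known as mitochondrial members of the family, had dim signals of 4.57 and 3.91 in C6 TAZ and 4.08 and 3.67 in C6, with differences of 0.49 and 0.24. The lowest signal of any cluster in C6 TAZ was 2.71, so neither could have shown a fall as large as that of Acss2.

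NADPH for the synthase comes in part from Me1, the cytosolic malic enzyme that turns malate into pyruvate. Me1 had a log2 signal of 10.97 in C6 TAZ and 11.93 in C6, a difference of −0.96 or 1.95-fold, just within 2-fold. At or below that difference lay 2.45% of all clusters. The mitochondrial malic enzymes were not lower, with differences of 0.14 for Me2 and 0.53 for Me3. The signals of Me3 were dim, at 4.37 in C6 TAZ and 3.84 in C6.

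The carboxylases had differences of opposite sign. Acaca, the cytosolic carboxylase that makes malonyl-CoA for synthesis, had a log2 signal of 9.73 in C6 TAZ and 10.80 in C6, a difference of −1.07. Acacb, the carboxylase of the outer mitochondrial membrane whose malonyl-CoA restrains fatty acid import, had a log2 signal of 4.73 in C6 TAZ and 4.41 in C6, a difference of 0.32. The difference of Acaca was 1.39 below that of Acacb, but the signals of Acacb were under 6 in both arrays and 23.1% of all clusters were at its difference or higher. Fasn, the multi-domain synthase, had a log2 signal of 11.52 in C6 TAZ and 12.69 in C6, a difference of −1.17. In this range of brightness, at a mean log2 signal of 10 or more, 2.10% of 6278 clusters were lower by 2-fold or more. Acaca, Fasn and Acly lie on the same chromosome, 10 in GRCr8, and had differences of −1.07, −1.17 and −0.48.

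Olah encodes thioesterase II, which releases medium-chain fatty acids from the synthase and is best known from the lactating mammary gland of the rat. It had a log2 signal of 5.80 in C6 TAZ and 8.63 in C6, a difference of −2.83. This was the second lowest of all clusters, and its signal in C6 TAZ was below the median of that array. Milk protein genes and other mammary epithelial markers were dim in both arrays. None of the 6 markers (Csn2, Csn1s1, Lalba, Wap, Krt18, Elf5) reached a log2 signal of 6, with a range of 3.43 to 5.59 in C6 TAZ and 3.71 to 5.52 in C6, and Csn2 had a difference of −0.98 within that range. Markers of adipocytes, another lipogenic cell type, ranged from 3.59 to 6.10 in C6 TAZ and from 3.57 to 6.09 in C6. Those of hepatocytes ranged from 3.46 to 7.07 in C6 TAZ and from 3.48 to 8.11 in C6, where the upper end was Ttr in both arrays and albumin (Alb) was at 4.41 in C6 TAZ and 4.28 in C6.

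The 2 regulators are small paralogous proteins, and their differences had opposite signs. Thrsp, also called Spot 14, is a thyroid hormone-responsive protein of lipogenic tissues. It had a log2 signal of 5.02 in C6 TAZ and 4.01 in C6, a difference of 1.01, which is barely past 2-fold and comes from signals under 6 in both arrays. Of the 10840 clusters with a mean log2 signal under 6, 1.51% were higher by 2-fold or more. Mid1ip1, which in mouse binds acetyl-CoA carboxylase and promotes its polymerization, had a log2 signal of 11.62 in C6 TAZ and 11.93 in C6, a difference of −0.31. Together with Acacb this was the difference nearest to 0 among the 10 genes, and 23.0% of all clusters were at that difference or lower.

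Brightness limits what can be read for 3 of the genes. Acacb and Thrsp, the 2 genes with a positive difference, had log2 signals under 6 in both arrays, and Olah had one under 6 in C6 TAZ. No measure of detection was used here, so whether the signals of these genes differ from background was not tested.

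**Figure D2:**
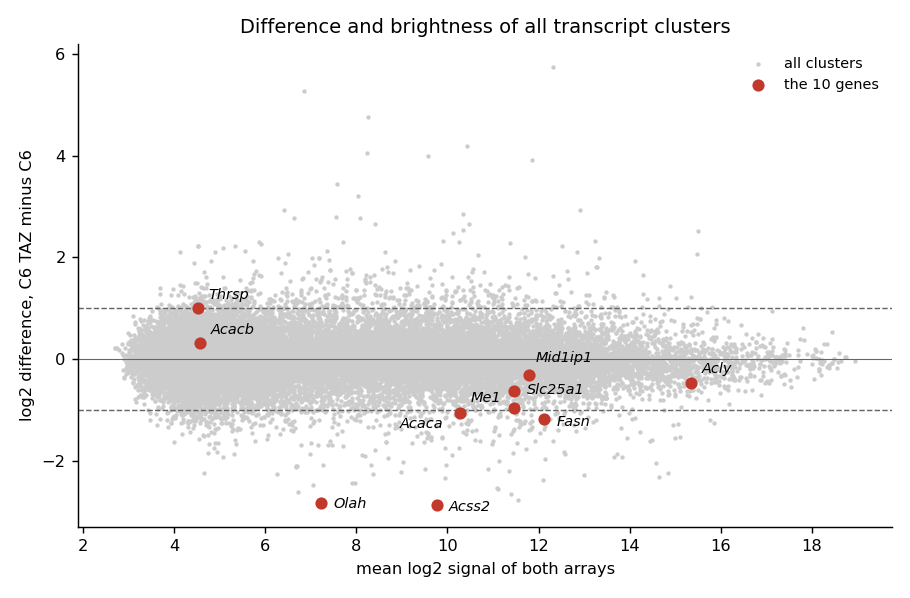
Log2 difference of C6 TAZ minus C6 (vertical axis) against the mean log2 signal of both arrays (horizontal axis) for all 23188 transcript clusters (grey points) and the 10 genes (red, labelled), with dashed lines at 2-fold. Olah at −2.83 and Acss2 at −2.88 form the lower edge of all clusters, Fasn and Acaca lie just below the lower dashed line, and Thrsp lies on the upper one at low brightness.

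The genes that feed the pathway were compared as fixed lists. Over all clusters, 2.10% were lower and 2.34% higher by 2-fold or more, and 49.5% were below 0. In the citrate-pyruvate shuttle (11 further genes for citrate synthesis, malate and pyruvate handling and their carriers), 10 genes were below 0 and none was past 2-fold, with a median of −0.40. The oxoglutarate carrier gene Slc25a11 was farthest from 0, at −0.72. Of 11 further NADPH genes measured, 8 were below 0 and none was past 2-fold (median −0.35), with the isocitrate dehydrogenases Idh2 at −0.94 and Idh1 at −0.67.

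Among 5 other enzymes that use or make acetyl-CoA and acetoacetyl-CoA, 2 were lower by 2-fold or more, against 2.10% of all clusters (median −0.61). Aacs, which activates acetoacetate in the cytosol for lipid synthesis, had a log2 signal of 9.63 in C6 TAZ and 11.07 in C6, a difference of −1.44. Acat2, the cytosolic thiolase that draws acetyl-CoA into sterol synthesis, had a difference of −2.29, while its mitochondrial relative Acat1 was at −0.61. Acat2 is also counted among the mevalonate pathway genes below, so the counts of these lists overlap. The cytosolic enzymes Acss2, Aacs and Acat2 had larger negative differences than the mitochondrial enzyme Acat1. The cytosolic enzyme Acly, at −0.48, had a smaller one than Acat1, so the cytosolic enzymes did not all share this order. The mitochondrial enzymes Acss1 and Acss3 had signals under 6 in both arrays, too dim to show falls of these sizes.

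Genes that act on malonyl-CoA or on the carboxylases (subunits and the upstream kinase of AMPK, the biotin enzymes, the decarboxylase Mlycd and the carnitine palmitoyltransferases) had no common direction. Of 14, 6 were below 0 and 8 above, none was past 2-fold and the median was 0.08. The carnitine palmitoyltransferase gene Cpt1b, whose product malonyl-CoA inhibits, was farthest above 0 at 0.78, and the biotinidase gene Btd was farthest below at −0.63. The other members of the transferase family were also above 0, with Cpt1a at 0.55 and Cpt1c at 0.31. The separate mitochondrial pathway of fatty acid synthesis had a median of −0.07 over 11 genes, none past 2-fold, with Oxsm, its condensing enzyme, at −0.62, the acyl carrier protein gene Ndufab1 at −0.58 and the lipoyltransferase gene Lipt1 at 0.58. None of 14 other thioesterases was past 2-fold. Of these, 10 were above 0, as were 11432 of all 23188 clusters, and the median was 0.22. The lysosomal palmitoyl-protein thioesterase gene Ppt1 was at 0.98 and the cytosolic acyl-CoA thioesterase gene Acot7 at −0.86, which was the lowest of this list, against −2.83 for Olah.

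Among 21 regulators of lipogenic genes, 2 were past 2-fold, both lower, against 2.10% of all clusters lower by 2-fold or more. The median was 0.15, with 8 genes below 0 and 13 above. The highest was Mlxip at 0.99, with log2 signals of 8.85 in C6 TAZ and 7.86 in C6. The 2 past 2-fold were Insig1, which retains SREBPs in the endoplasmic reticulum and is itself their target, at −1.29, and Srebf2, the SREBP of sterol genes, at −1.07. Srebf1, which encodes the SREBP best known for fatty acid genes, had a log2 signal of 4.81 in C6 TAZ and 4.15 in C6, a difference of 0.66. Mlxipl, which encodes the carbohydrate-responsive factor ChREBP, was likewise under 6 in both arrays, with 4.36 in C6 TAZ and 5.10 in C6. The thyroid hormone receptors, whose hormone acts on Thrsp, had differences of 0.87 for Thra and −0.37 for Thrb. The transcripts of the factors thus had both signs, and no measure of their activity was made on the arrays.

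The list was set beside the elongation and desaturation steps that follow and beside sterol synthesis. In elongation and desaturation, the median was −0.43, and 3 of 12 genes were past 2-fold. All 3 were lower, against 2.10% of all clusters lower by 2-fold or more. These were the desaturase Scd (−2.05, listed as Scd1 on the array), the elongase Elovl6 (−1.34), which extends the palmitate made by the synthase, and the reductase Tecr (−1.25). The other desaturases of the list were within 2-fold. Scd2, with log2 signals of 17.96 in C6 TAZ and 18.06 in C6, was at −0.10, Fads1 at −0.43 and Fads2 at −0.42. In the mevalonate pathway, 9 of 10 genes passed 2-fold on the lower side, with a median of −2.11 and a range of −2.56 to −0.56. The median of the 10 fatty acid synthesis genes was −0.79, with a range of −2.88 to 1.01 that extends past both lists at either end. With 1 array per line the differences between these medians were not tested. Acss2 and Olah exceeded all 10 mevalonate genes in size, whereas Fasn and Acaca were smaller than 9 of them.

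**Figure D3:**
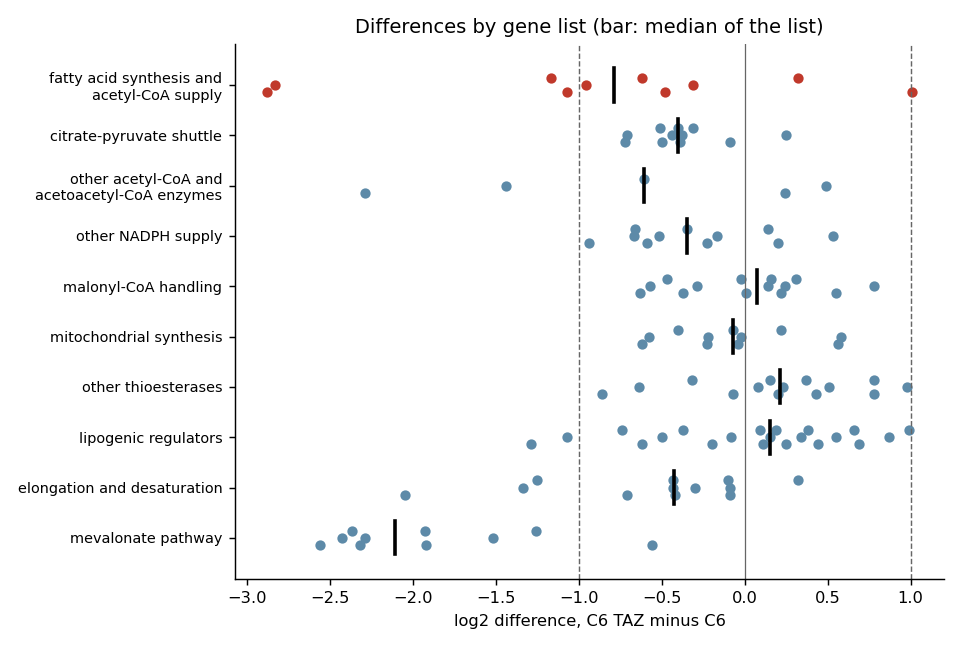
Log2 difference of C6 TAZ minus C6 (horizontal axis) for each measured gene of the fatty acid synthesis group (red points, top) and of the lists of related genes (blue points), with a black bar at each list's median and dashed lines at 2-fold; the vertical spread of points within a list has no meaning. The median is −0.79 for fatty acid synthesis and acetyl-CoA supply, −2.11 for the mevalonate pathway and between −0.61 and 0.22 for the other lists.

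The position of the genes on their chromosomes was examined through the 2 nearest protein-coding genes with their own cluster on either side, in the gene order of GRCr8. The differences of these 40 neighbours ran from −1.01 to 0.79 around a median of −0.01. Of the 40, 1 was past 2-fold, near the shares over all clusters, of which 2.10% were lower and 2.34% higher by 2-fold or more. The neighbour past 2-fold was Dusp14, near Acaca, at −1.01 (named after its value was seen). The genes next to Acss2 were Ggt7 at −0.30 and Gss at −0.76, and those next to Olah were Meig1 at 0.16 and Acbd7 at 0.76. Meig1 and Acbd7 had signals of 4.10 and 4.15 in C6, too dim to show a fall as large as that of Olah. The next genes out from Olah, Dclre1c and Rpp38, had signals of 8.12 and 7.09 in C6, with differences of 0.53 and −0.22. The differences of Acss2 and Olah were thus not shared by those neighbours that were bright enough to show them.

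**Figure D4:**
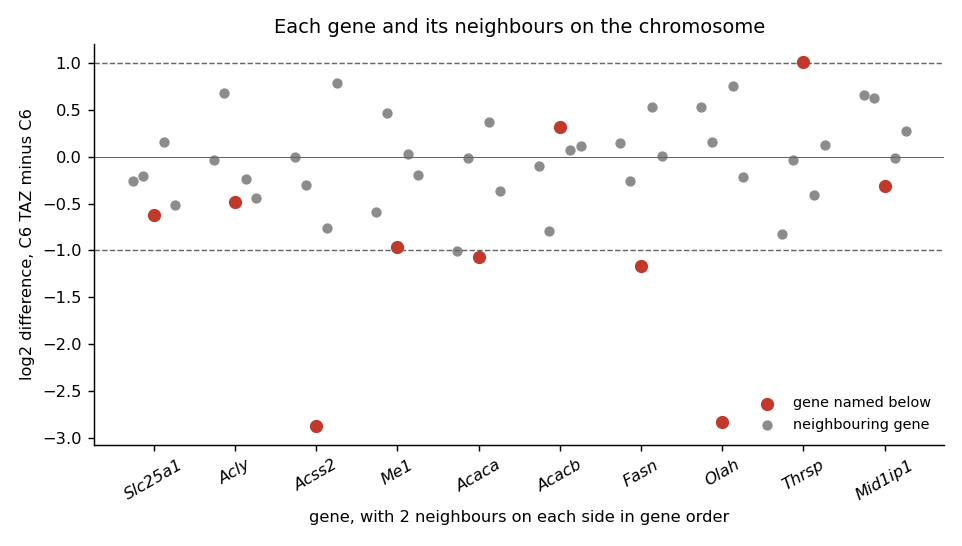
Log2 difference of C6 TAZ minus C6 (vertical axis) for each of the 10 genes (red) and the 2 measured protein-coding genes on either side of it in gene order (grey), with dashed lines at 2-fold. The 40 neighbours lie between −1.01 and 0.79, while Acss2 and Olah lie at −2.88 and −2.83.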

How the data were processed

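The values are the log2 signals of transcript clusters that the authors deposited for 2 Clariom S rat arrays, 1 of C6 TAZ and 1 of C6 cells, each of RNA pooled from 3 cultures. Affymetrix Expression Console is named in the submitters' processing notes, the annotation is for rn6, and the sources used here do not give the summarization or normalization. The number of arrays limits the precision. The deposited fold changes, which are the authors' own comparison, and a second sheet of peptidases were not used. The analysis of variance of the study's methods cannot be run with 1 array per line.

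Differences of C6 TAZ minus C6 were rounded to 2 decimals and counted as past 2-fold at 1 or more (pandas 2.3.3, Python 3.11.15). Counting and scaling were tested on simulated data. The genes, lists and tests were chosen with earlier results of these data known. Named were the 10 genes, the disrupted gene and, in each list, the genes past 2-fold or otherwise the 2 farthest from 0 that reach a log2 signal of 6; the mevalonate genes are given by their range, and family members, other regulators, neighbours and markers were named besides. A few genes are not reported here by name. Of 173 listed genes 172 were measured, and Scd was found through a RefSeq synonym. Of the clusters, 21502 carry 1 symbol, 1673 several and 13 none. Motifs were searched in RefSeq promoter windows, leaving out the 50 bases after the start. Alternatives were other scalings, the other column names, limits on signal, a 1.5-fold threshold and the brightest cluster of a gene. The background shares within bands of brightness were added after seeing the data.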

Additional observations from a re-analysis of the deposited data

How the results depend on the processing

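Centring the arrays on the median of all clusters or on 127 ribosomal protein clusters, or quantile normalization, moved no difference of the 10 genes by more than 0.04, and all 30 values kept their side of 2-fold. Taking the brightest cluster changed nothing, since each gene has 1 cluster. With the column names of the per-sample table the differences became 2.88 for Acss2, 2.83 for Olah, 1.17 for Fasn, 1.07 for Acaca and −1.01 for Thrsp, with a median of 0.79, and 1 gene (Thrsp) was lower and 4 were higher by 2-fold or more. At 1.5-fold, 6 genes were lower, since Me1 and Slc25a1 were added, and 1 was higher. With a log2 signal of at least 6 or of at least 8 in 1 array, the 4 lower genes stayed, 0 genes were higher because Thrsp was left out, and the median was −1.02. The mean of the 10 differences was −0.90, against a median of −0.79. At a signal of at least 6 the median of the other acetyl-CoA enzymes was −1.44 over 3 genes and that of the further NADPH genes −0.52 over 9; the other list medians moved by less than 0.1 under this limit and all of them under quantile normalization. No paired analysis was possible because each line has 1 array. Signals near the dim end, as for Acacb, Thrsp and Srebf1, have no detection limit here.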
